A study of Mus musculus with 10 samples.

Results

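The keratin family was followed in 10 mouse thyroid tumours each profiled on its own Affymetrix array. Members were all genes whose probe set carries a single symbol made of Krt and a number: 48 of the 19938 genes with a single symbol, each with 1 probe set. They were grouped as simple keratins (6 genes), stratified keratins (19 genes) and keratins of hair and hair follicle (20 genes). Another 3, Krt88, Krt90 and Krt222, were put in no group. Krt74, counted with the hair keratins, is annotated as a transcribed pseudogene in assembly GRCm38.p6. Symbols with a letter, such as Krt6a, lie outside this rule, and Krt81, Krt83 and Krt85 are not analysed here.

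The 5 anaplastic thyroid carcinomas (ATC) are labelled TPOCreER; BrafV600E; p53 -/-. The 5 papillary thyroid carcinomas (PTC) are labelled TPOCreER; BrafV600E, with no p53 allele named. TPOCreER is a tamoxifen-inducible Cre recombinase under the promoter of thyroid peroxidase, a thyrocyte gene, and V600E is the activating change in the Braf kinase, so both groups carry the Cre and the Braf allele. All mice were of a mixed C57BL/6;129SvJae background, and their age is not given in the sources used here. Tumour type and p53 genotype changed together and cannot be told apart. The labels call the tumours biological replicates without naming animals, so p-values measure the spread between these 5 and 5 arrays.

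Values are deposited log2 probe set intensities, and differences are ATC minus PTC with n = 5 tumours in each group. A gene passed when limma's p, adjusted across the 19938 genes after Benjamini and Hochberg, was under 0.05. Between the types 21.2% of all genes passed, 9.72% lower and 11.5% higher in ATC, and their median difference was −0.02. Over genes, array medians ran from 7.42 to 7.51 in ATC and from 7.46 to 7.55 in PTC. ATC replicate 5 had the lowest array weight (0.38), and ATC replicate 2 lay nearest to the PTC arrays on the first principal component. Probe sets differ in affinity, so levels are compared between tumours and not between genes.

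Keratins are the intermediate filament proteins of epithelial cells. An acidic type I chain and a basic type II chain pair to build each filament, so the genes work in couples: Krt8 (type II) with Krt18 (type I) in simple epithelia such as the thyroid follicle, Krt5 with Krt14 in the basal layer of stratified epithelia, and Krt1 with Krt10 in the layers above. Krt7, Krt19 and Krt20 are added in particular simple epithelia, Krt7 and Krt19 in many ducts and Krt20 in gut lining and urothelium. Pathologists read keratin staining to tell carcinomas from other tumours, and KRT19 is a known marker of human papillary thyroid carcinoma.

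Of the 48 keratins, 7 fell in ATC, 0 rose and 41 did not pass. Those that fell were the simple keratins Krt7, Krt19 and Krt20 and the stratified keratins Krt14, Krt17, Krt5 and Krt10. This share, 14.6%, stands beside 9.72% of all genes lower at the same threshold. Of the 48, 11 had an unadjusted p under 0.05, as did 32.7% of all genes. The couple Krt8 and Krt18 did not pass and stayed above 10.4 in every tumour. The median difference was −1.61 over the simple, −0.08 over the stratified and −0.04 over the hair keratins. For 8 of the 48 all ATC values lay below all PTC values (7.74% of all genes), and for 0 of them above (9.13% of all genes).

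**Figure D1:**
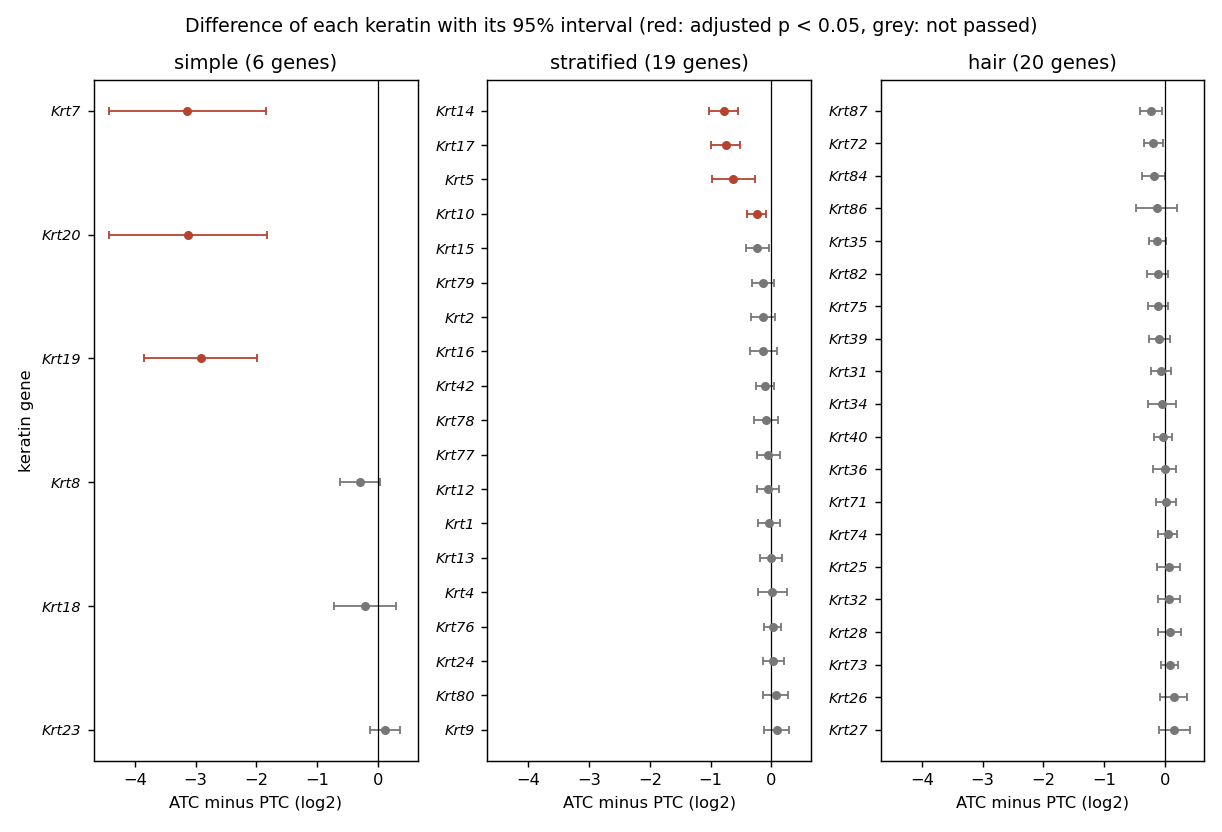
Difference between the groups (ATC minus PTC, log2, x axis) for each simple, stratified and hair keratin, with its 95% interval from the limma fit. Red marks the 7 genes that passed, which all lie left of 0. Krt7, Krt20 and Krt19 lie near −3, whereas the hair keratins stay between −0.23 and 0.15.

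The promoters of 4 simple keratins are shown because genes of the same filament system differed in their change. RefSeq promoter windows of assembly GRCm38.p6 were matched for 35 of the 48 keratins, among them 5 simple keratins. No window was available for Krt19, which also fell, and that of Krt23 is not printed. The 150 bases before the annotated start are printed 5′ to 3′ for Krt7 and Krt20, which fell, and for Krt8 and Krt18, which did not pass. Krt7 lies at chr15:101412253-101412402 on the plus strand, Krt20 at chr11:99438154-99438303 on the minus strand, Krt8 at chr15:102004343-102004492 on the minus strand and Krt18 at chr15:102028066-102028215 on the plus strand. Capitals mark matches to any of 5 motifs, read on both strands.
Krt7: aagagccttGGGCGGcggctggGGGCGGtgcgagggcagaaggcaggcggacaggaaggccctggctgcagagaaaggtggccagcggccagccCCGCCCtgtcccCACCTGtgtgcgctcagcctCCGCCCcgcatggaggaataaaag
Krt20: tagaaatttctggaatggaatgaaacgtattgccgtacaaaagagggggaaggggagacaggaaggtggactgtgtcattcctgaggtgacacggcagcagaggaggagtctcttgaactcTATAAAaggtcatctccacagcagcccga
Krt8: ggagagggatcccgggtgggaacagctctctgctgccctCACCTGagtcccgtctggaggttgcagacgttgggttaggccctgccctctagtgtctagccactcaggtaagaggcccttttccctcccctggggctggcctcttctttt
Krt18: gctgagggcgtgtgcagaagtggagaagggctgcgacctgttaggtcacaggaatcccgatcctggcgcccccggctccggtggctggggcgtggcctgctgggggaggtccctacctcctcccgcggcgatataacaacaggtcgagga

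The motifs were the TATA box (TATAAA, in 7.57% of all 32851 windows of this length), the E2 box read by Snail and Zeb repressors (CACCTG, 10.6%), the GC box (GGGCGG, 28.6%), the AP-1 site (TGANTCA, 4.24%) and the grainyhead site (AACCNGTT, 1.05%). Krt7 held 4 GC boxes and an E2 box, Krt20 a TATA box and Krt8 an E2 box, while the Krt18 window held 0 matches. The E2 box thus occurred both in a promoter whose gene fell and in one whose gene did not pass. These matches describe letters in a window and are not binding sites measured here.

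Krt7, the type II chain of many ductal and glandular epithelia, was the keratin with the largest difference. Its log2 intensity was 6.59, 10.19, 6.68, 8.94 and 8.77 in ATC replicates 1 to 5, against 11.20, 11.37, 11.35, 11.58 and 11.35 in PTC replicates 1 to 5. All ATC tumours lay below all PTC tumours, and ATC replicates 1 and 3 lay far below ATC replicate 2. The mean was 8.23 ± 1.56 in ATC and 11.37 ± 0.13 in PTC (SD, n = 5 each), a difference of −3.14 (95% interval −4.43 to −1.84, limma adjusted p = 0.0035) or 8.80-fold lower in ATC.

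Krt19, the small type I keratin that lacks a tail domain, showed a similar spread. It stood at 6.77, 9.49, 6.92, 8.25 and 8.05 in ATC replicates 1 to 5, against 10.82, 10.86, 10.58, 10.97 and 10.86 in PTC replicates 1 to 5. The groups did not overlap, and the order of the ATC tumours from high to low (replicates 2, 4, 5, 3 and 1) was that seen for Krt7. The difference was −2.92 (95% interval −3.85 to −1.99, limma adjusted p = 0.00085), 7.57-fold lower in ATC.

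Krt20, a type I keratin known from intestinal and urothelial cells, was bright in the papillary tumours. It stood at 8.64, 10.32, 6.12, 9.14 and 8.27 in ATC replicates 1 to 5, against 11.05, 11.81, 11.70, 11.73 and 11.82 in PTC replicates 1 to 5. ATC replicate 2 was again the highest ATC tumour, ATC replicate 3 the lowest, and PTC replicate 1 was lower than the other PTC tumours. The difference was −3.12 (95% interval −4.42 to −1.82, limma adjusted p = 0.00366), 8.72-fold lower in ATC, and it was −2.53 without ATC replicate 3. These 3 of the 48 keratins fell by at least 2 log2 units, as did 0.577% of all genes. The same 3 of 48 were those that fell by at least 1 log2 unit, beside 2.45% of all genes.

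**Figure D2:**
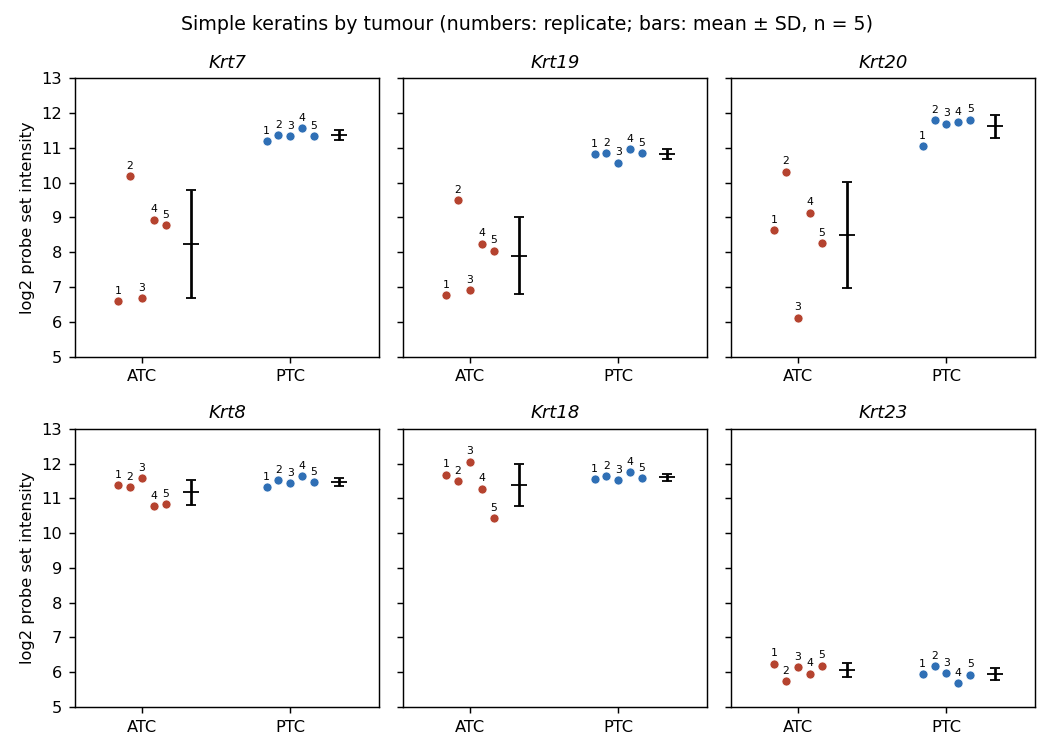
Log2 probe set intensity of the 6 simple keratins in each tumour, ATC left and PTC right, numbered by replicate, with mean ± SD (n = 5). ATC values of Krt7, Krt19 and Krt20 lie below all PTC values and are spread out. Those of Krt8 and Krt18 overlap with PTC above 10.4, and Krt23 stays near 6 in both groups.

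Krt8, the type II partner of the basic simple-epithelial couple, stayed high. It stood at 11.38, 11.31, 11.58, 10.78 and 10.82 in ATC replicates 1 to 5, against 11.31, 11.52, 11.45, 11.63 and 11.47 in PTC replicates 1 to 5. ATC replicates 4 and 5 were lower than every PTC tumour, ATC replicate 2 was so only narrowly, and ATC replicates 1 and 3 lay among the PTC tumours. The difference was −0.30 (95% interval −0.63 to 0.03, limma adjusted p = 0.190).

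Krt18, its type I partner, stood at 11.68, 11.50, 12.06, 11.28 and 10.44 in ATC replicates 1 to 5, against 11.56, 11.63, 11.51, 11.76 and 11.57 in PTC replicates 1 to 5. ATC replicate 3 was higher than every PTC tumour, ATC replicates 2, 4 and 5 were lower than every one, and ATC replicate 2 only narrowly. The difference was −0.21 (95% interval −0.73 to 0.30, limma adjusted p = 0.583), so a fall of the size seen for Krt7 lies outside the interval. Krt23, a type I keratin of glandular epithelia, was dim, at 6.06 ± 0.21 in ATC and 5.94 ± 0.17 in PTC (SD, n = 5 each; difference 0.11, limma adjusted p = 0.542).

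Differences between the log2 values of 2 keratins on the same array were compared between the groups for 5 pairs of genes (2-sided exact permutation test over the 10 arrays, smallest possible p 0.00794, Benjamini-Hochberg over the 5 pairs). Krt7 minus Krt8, both type II, was −4.79, −1.12, −4.90, −1.84 and −2.05 in ATC replicates 1 to 5, against −0.15 to −0.05 in PTC. The shift was −2.84 (exact p = 0.00794, adjusted p = 0.0198), and every ATC tumour lay below every PTC tumour. Krt19 minus Krt18, both type I, shifted by −2.71 with the same exact and adjusted p. Its values lay between −5.14 and −2.01 in ATC and between −0.93 and −0.72 in PTC. Both pairs set a gene already seen to fall, without overlap, against one of the same type that did not pass. Their p-values therefore restate the single-gene results and are no separate support.

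The other 3 pairs, each a type I and a type II chain of 1 filament, did not pass. Krt8 minus Krt18 averaged −0.22 ± 0.36 in ATC and −0.13 ± 0.07 in PTC (SD, n = 5 each), a shift of −0.09 (exact p = 0.667, adjusted p = 0.667). ATC replicate 5 stood apart with 0.38 against −0.50 to −0.19 in the other ATC tumours, and without it the shift was −0.24 and passed (exact test, adjusted p = 0.0397). Krt5 minus Krt14 shifted by 0.16 (exact p = 0.294, adjusted p = 0.367) and Krt1 minus Krt10 by 0.20 (exact p = 0.0952, adjusted p = 0.159). The last of these passed when the arrays were quantile normalized once more (0.22, exact test, adjusted p = 0.0265) and without ATC replicate 5 (0.25, exact test, adjusted p = 0.0397).

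**Figure D3:**
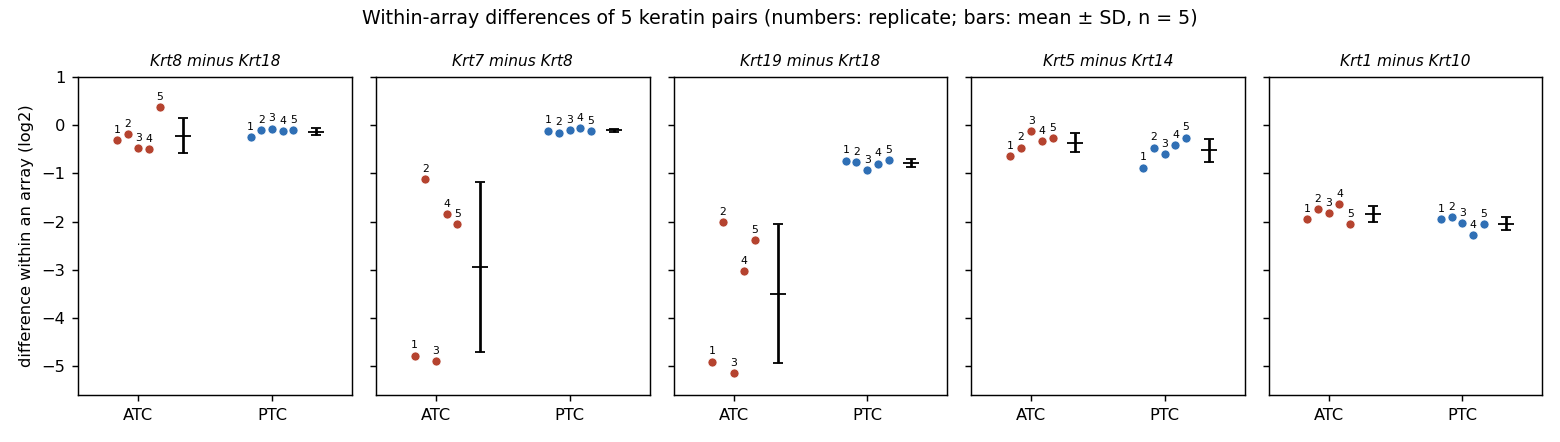
Difference between the log2 values of 2 keratins on the same array (y axis), for 5 pairs of genes in ATC (left) and PTC (right), numbered by replicate, with mean ± SD (n = 5). Krt7 minus Krt8 and Krt19 minus Krt18 are lower in all ATC tumours than in any PTC tumour, by −2.84 and −2.71 on average. The other 3 pairs overlap between the groups.

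The 5 ATC tumours differed from each other in Krt7, Krt19 and Krt20 more than the PTC tumours did. All 6 simple keratins had the larger SD in ATC, as did 32 of the 48 keratins and 68.6% of all genes. Set against the PTC mean, Krt7 deviated by −4.78, −1.18, −4.69, −2.43 and −2.60 log2 units in ATC replicates 1 to 5. The epithelial adhesion gene Epcam, which is no keratin, deviated by −4.49, −0.92, −4.25, −1.52 and −2.46 in the same tumours, and Cdh1, the gene of E-cadherin, by −3.79, −1.22, −3.07, −1.82 and −2.26. Krt8 deviated by −0.10, −0.16, 0.11, −0.70 and −0.65. ATC replicates 1 and 3, lowest in Krt7, Krt19, Epcam and Cdh1, were the highest ATC tumours in Krt8 and Krt18.

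**Figure D4:**
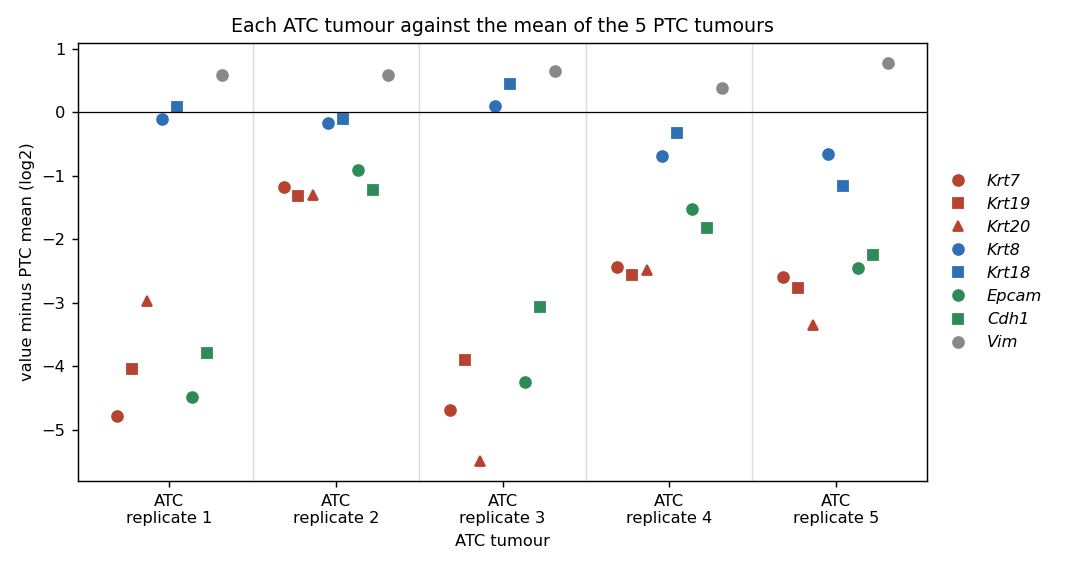
Log2 value of each ATC tumour minus the mean of the 5 PTC tumours (y axis) for 5 simple keratins, Epcam, Cdh1 and Vim, with the tumours in replicate order on the x axis. In every tumour Krt7, Krt19 and Krt20 lie at −1.18 or lower, Krt8 and Krt18 lie above them, and Vim lies above 0.

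In bulk tumour RNA, fewer cells of a type and less RNA per cell cannot be told apart. A list of 12 further epithelial markers moved with Krt7, Krt19 and Krt20: 12 of 12 fell, beside 9.72% of all genes. Their mean log2 level was 7.05 to 8.45 over ATC tumours and 9.25 to 9.5 over PTC tumours. Epcam differed by −2.73, Cdh1 by −2.43 and the protease inhibitor gene Spint1 by −2.08 (limma adjusted p 0.000835 to 0.00838). Of 12 macrophage markers 12 rose, beside 11.5% of all genes. Their mean levels were 10.54 to 11.23 in ATC and 9.17 to 9.63 in PTC. Of 10 airway markers 5 fell, beside 9.72% of all genes, and 0 rose. The other 5 did not pass, Scgb1a1 and Foxj1 among them. Scgb1a1 was dim, with means of 4.74 in ATC and 4.54 in PTC (limma adjusted p = 0.36). Foxj1 differed by −0.02 (limma adjusted p = 0.904). Cyp2f2, a cytochrome of airway club cells, was at 6.59, 10.15, 6.47, 9.02 and 8.59 in ATC replicates 1 to 5 and at 11.72 to 12.37 in PTC (difference −3.78, limma adjusted p = 0.00147), which is larger than the difference of any keratin. The mucin gene Muc5b differed by −3.27 (limma adjusted p = 0.000873) and Bpifa1, a secreted airway protein, by −2.51 (limma adjusted p = 0.00893, groups overlapping). Among ATC tumours, replicate 2 was highest and replicates 1 and 3 lowest in Cyp2f2, Muc5b and Bpifa1. On the same arrays Krt8 and Krt18 were measured at 10.44 or higher in every tumour. The part of these cell types in the keratin values and differences was not tested.

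Among stratified keratins, the basal couple and its injury-associated relative fell by less than 1 log2 unit. Krt14, the type I chain of basal cells, stood at 7.41, 7.65, 7.21, 7.57 and 7.51 in ATC replicates 1 to 5, against 8.16, 8.04, 8.24, 8.55 and 8.29 in PTC replicates 1 to 5. No ATC tumour reached a PTC value. The difference was −0.79 (95% interval −1.02 to −0.55, limma adjusted p = 0.000669), the smallest p of all keratins.

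Krt17, a type I keratin induced in wounded and activated epithelium, stood at 6.51, 6.29, 6.30, 6.65 and 6.22 in ATC replicates 1 to 5, against 7.02, 7.06, 7.0, 7.22 and 7.45 in PTC replicates 1 to 5. The difference was −0.76 (95% interval −1.0 to −0.51, limma adjusted p = 0.000907), and the groups did not overlap. Krt5, the type II partner of Krt14, stood at 6.78, 7.19, 7.08, 7.25 and 7.24 in ATC, against 7.28, 7.58, 7.65, 8.13 and 8.03 in PTC. PTC replicate 1 lay just above the highest ATC tumours, and the difference was −0.63 (95% interval −0.98 to −0.28, limma adjusted p = 0.0167).

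Krt10, the type I keratin of suprabasal epidermis, showed the smallest difference that passed. It was at 7.66 ± 0.07 in ATC and 7.90 ± 0.12 in PTC (SD, n = 5 each), −0.25 (limma adjusted p = 0.0344). Its call ended in 10 of 20 alternatives, among them the fits without ATC replicate 1, 2, 3 or 4 or PTC replicate 1, 3 or 4 (limma adjusted p 0.0531 to 0.0893). Its partner Krt1 differed by −0.05 (adjusted p = 0.747). Krt15, another basal type I keratin, had ATC values of 6.52 to 6.81 below PTC values of 6.82 to 7.12 and did not pass (−0.23, limma adjusted p = 0.0725).

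**Figure D5:**
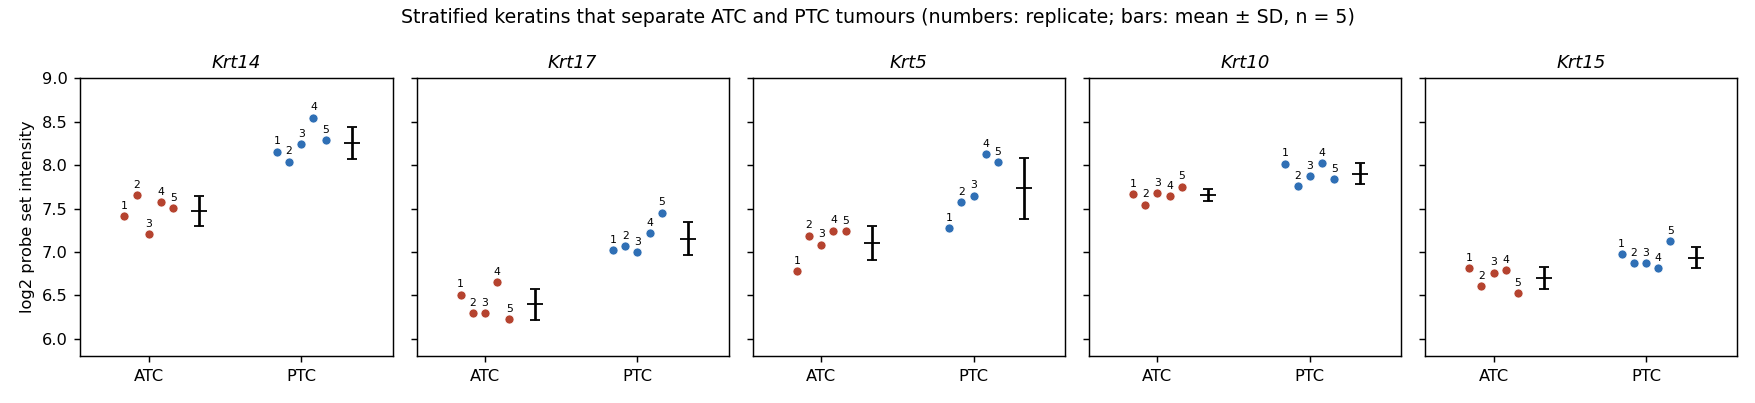
Log2 probe set intensity of the 5 stratified keratins whose groups did not overlap, ATC left and PTC right, numbered by replicate, with mean ± SD (n = 5). The distance between the groups is −0.79 for Krt14, −0.76 for Krt17 and −0.63 for Krt5, and −0.25 and −0.23 for Krt10 and Krt15.

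The other 14 stratified keratins overlapped between the groups, with differences from −0.14 to 0.09. They include the oesophageal couple Krt4 (0.02) and Krt13 (−0.01), the corneal keratin Krt12 (−0.05), the injury keratin Krt16 (−0.13), Krt79 (−0.14), Krt42 (−0.11) and Krt80 (0.07), with limma adjusted p-values of 0.287 to 0.952. Of the 19 stratified keratins, 14 lay below the array median on all 10 arrays. These are not the same 14 genes: they include Krt17, which passed, and Krt15, but not Krt42 or Krt80. Krt14, Krt16, Krt17 and Krt42 are close paralogs, and signal shared between their probe sets was not checked.

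Markers of stratified squamous epithelium other than keratins were measured beside these genes. Of 11 such genes 5 fell, beside 9.72% of all genes, and 0 rose. Their mean levels were 6.33 to 6.68 in ATC and 6.94 to 7.24 in PTC. Trp63, the master regulator of basal epithelial cells and a known activator of Krt5 and Krt14, was at 6.66, 8.16, 7.29, 8.24 and 7.49 in ATC, against 9.29, 9.12, 9.42, 9.42 and 9.48 in PTC (difference −1.78, limma adjusted p = 0.000834). Of 23 genes of the cornified envelope 6 fell, beside the same 9.72%, and 0 rose. Of the 23, 9 were among the 11 squamous markers just given, and 4 of the falls were shared. The largest differences were those of the transglutaminase gene Tgm1 (−1.82, limma adjusted p = 0.00107), the calmodulin-like gene Calml3 (−1.56) and the desmosomal cadherin gene Dsc3 (−1.17). Of 7 thymic epithelial markers 0 fell and 1 rose, beside 11.5% of all genes higher in ATC. The 1 that rose was Ctsl (0.66, limma adjusted p = 0.00295). Their part in the stratified keratin differences was not tested.

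Hair keratins gave no called difference. Of 20 genes 0 rose and 0 fell in limma, 3 had an unadjusted p under 0.05 (32.7% of all genes), and differences ran from −0.23 for Krt87 (limma adjusted p = 0.0807) to 0.15 for Krt27. Krt72, of the inner root sheath, differed by −0.19 (limma adjusted p = 0.0797) and passed without ATC replicate 2 (−0.23, limma adjusted p = 0.0469). The probe set of Krt28 was the dimmest of the keratins, with means of 4.88 in ATC and 4.80 in PTC. Of the 20 hair keratins, 19 lay below the array median on every array. Among 44 genes of keratin-associated proteins, which cross-link hair keratins, 0 rose and 0 fell in limma and 3 had an unadjusted p under 0.05. Of 9 other hair follicle markers 0 fell and 1 rose (S100a3, 0.62, limma adjusted p = 0.0444), beside 11.5% of all genes higher in ATC. The ungrouped Krt88, Krt90 and Krt222 differed by −0.15, −0.14 and −0.03 (limma adjusted p 0.263 to 0.837).

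The chromosomal neighbours of Krt7, Krt19 and Krt20 differed by much smaller amounts. In the gene order of GRCm38.p6, Krt7 stands in place 2 of 27 keratin genes on chromosome 15, between Krt80 (0.07) and Krt87 (−0.23), while Krt8 and Krt18 stand side by side in places 26 and 27. Krt18 is the 1 type I member of that cluster. On chromosome 11 Krt20 stands in place 9 of 27 between Krt12 (−0.05) and Krt23 (0.11), and Krt19 in place 22 between Krt15 (−0.23) and Krt9 (0.09), and none of the 6 flanking genes passed. The ATC and PTC values of Krt15 did not overlap, as given above, and whether neighbours differ from the genes that fell was not tested. Of the 26 type I keratins 5 fell (19.2%) and of the 22 type II keratins 2 fell (9.09%), beside 9.72% of all genes. Whether the 2 types differ was not tested.

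Keratins outside the numbering rule showed little change. Krt6a, a type II partner of Krt16 and Krt17, was at 7.28, 7.33, 7.43, 7.57 and 6.38 in ATC, against 7.44, 7.33, 7.13, 7.35 and 7.34 in PTC (difference −0.12, limma adjusted p = 0.712). Krt6b differed by −0.04 (limma adjusted p = 0.902). Of the 4 genes Krt33b alone passed (−0.26, limma adjusted p = 0.0452), and its call ended in 13 of 20 alternatives.

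Of 17 genes that link or organise keratin filaments 11 fell, 2 rose and 4 did not pass, with a median of −0.35. Of all genes 9.72% were lower and 11.5% higher in ATC. Desmoplakin, Dsp, which ties keratins to the desmosome, fell by 1.61 (limma adjusted p = 0.00296), plakoglobin, Jup, fell by 1.29 (limma adjusted p = 0.00584), and Sfn, a 14-3-3 protein known to bind Krt17, fell by 0.95 (limma adjusted p = 0.0003). The 2 that rose were the plakin genes Dst (0.88, limma adjusted p = 0.00125) and Plec (0.66, limma adjusted p = 0.0293), named here after their values were seen. Plec overlapped between the groups. Of the regulators of epithelial genes 9 of 20 fell and 1 rose, beside 9.72% and 11.5% of all genes, with a median of −0.25. Grhl2, a grainyhead factor, was at 6.10, 7.99, 6.00, 7.57 and 6.82 in ATC, against 8.92, 8.86, 9.06, 9.21 and 9.13 in PTC (difference −2.14, limma adjusted p = 0.00136), the ETS factor Ehf fell by 2.55 and the splicing regulator Esrp1 by 2.5 (limma adjusted p 0.000282 and 0.00109).

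Of 15 other intermediate filament genes, nuclear lamins included, 0 fell, 5 rose and 10 did not pass, with a median of 0.05. Of all genes 9.72% were lower and 11.5% higher in ATC. Vim, the filament of mesenchymal cells, was at 12.89, 12.89, 12.95, 12.68 and 13.07 in ATC, against 12.52, 12.32, 12.20, 12.26 and 12.16 in PTC (difference 0.60, limma adjusted p = 0.00109). Nestin, Nes, which forms filaments together with vimentin, rose by 1.47 (limma adjusted p = 0.000317), and the neurofilament genes Nefm and Nefl rose by 3.13 and 2.58. ATC replicate 4 lay close to the PTC tumours in both genes. For Nefm it was at 5.95, just above the 5.42 to 5.85 in PTC, so the groups did not overlap. For Nefl it was at 6.01, within the 5.81 to 6.09 in PTC. The other 4 ATC tumours lay above 8.

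The remaining marker lists describe the tissue around the keratins. Of 11 thyroid follicular markers 4 fell, beside 9.72% of all genes, and 0 rose. Thyroglobulin, Tg, did not pass and overlapped between the groups. It was at 9.54 ± 2.41 in ATC and 12.31 ± 0.65 in PTC (SD, n = 5 each, difference −2.76, limma adjusted p = 0.0583). Within ATC it was lowest in replicates 1 and 3, the tumours lowest in Krt7. Of 11 fibroblast markers 4 fell, beside the same 9.72%, and 0 rose. Of 3 parathyroid and 11 skeletal muscle markers 0 fell and 0 rose in limma, with 0 at an unadjusted p under 0.05. Within the groups the parathyroid gene Pth varied widely, from 4.73 to 11.98 in ATC and from 4.38 to 12.66 in PTC. The muscle gene Myh1 ran from 6.25 to 8.96 in ATC and from 6.09 to 9.55 in PTC. Equal content of these tissues is therefore not shown. The part of these tissues in the keratin values was not tested.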

How the data were processed

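RNA of 10 tumours was hybridised to Affymetrix arrays. The deposited table of 35556 probe sets holds log2 intensities, a scale inferred from their range. Affymetrix Power Tools and limma are credited by the submitters' processing notes, which as used here state neither background correction, normalization nor build. Symbols came from GEO's platform table (21789 with 1 symbol, 1621 with several, 12146 with none here). The probe set with the highest mean represented each gene.

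Groups came from the sample titles. The contrast of ATC over PTC used lmFit and eBayes (limma 3.58.1, R 4.3.3) on 19938 genes, with no covariate or filter; the procedure was tested on simulated data. Permutation tests and figures used Python 3.11.15. Alternatives were a replicate block, other probe set rules, 2 filters on dim genes, 2 normalizations, array weights, a trended robust variance and arrays left out. Arrays give no detection calls, and their number limits the precision.

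Members, lists and naming rule were chosen with earlier results of these data known. Named were all simple keratins, members that passed, members of the tested couples, the brightest, the dimmest and the nearest misses, and the 3 genes of each list with the largest difference, of which those beside a keratin result are given.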

Additional observations from a re-analysis of the deposited data

Results flagged for a closer look

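Of 186 groups of 5 tumours checked (48 keratins and the named genes of the lists, in ATC and in PTC), 10 held a tumour whose gap to the nearest other was above the 95% critical share of the group's range (0.71); chance gives about 1 in 20. Among keratins, Krt20 in PTC replicate 1 was at 11.05 against 11.70 to 11.82 in the other PTC tumours, still above every ATC tumour. Krt13 in PTC replicate 5 was at 6.33 against 6.6 to 6.68, and Krt78 in PTC replicate 1 at 6.85 against 6.52 to 6.59. Krt24 in ATC replicate 5 was at 5.76 against 5.95 to 6.01, and Krt84 in ATC replicate 4 at 6.24 against 6.03 to 6.07. Outside the numbered keratins, Krt6a in ATC replicate 5 was at 6.38 against 7.28 to 7.57. Dsp in PTC replicate 5 was at 11.32 against 10.30 to 10.60, and the macrophage gene Msr1 in the same tumour at 9.07 against 10.16 to 10.38. The mucin gene Muc5b in PTC replicate 1 was at 12.12 against 10.30 to 10.82, and the endocrine marker Chga in ATC replicate 2 at 8.91 against 6.99 to 7.35.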

How the results depend on the processing

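In the 10 fits that left out 1 array, 6 to 7 keratins fell and 0 rose, and 3253 to 4128 genes passed in all. In the other 10 alternatives 5 to 7 keratins fell and 0 rose, and 3472 to 4647 genes passed; with a filter at the median of all genes 9 keratins stayed in the test and 5 of them fell. Krt7, Krt19, Krt20, Krt14 and Krt17 passed in all 99 fits that held them. Krt5 did not pass without ATC replicate 2 and PTC replicate 5 together (−0.57, limma adjusted p = 0.055). Krt10 did not pass in 10 alternatives, among them centring (limma adjusted p = 0.0644). Deviations of same-numbered arrays correlated at −0.086 to 0.12, and 1 of 5 ATC arrays correlated best with its own number. The sample titles name no pairing, and this check cannot exclude one. With permutation within same-numbered arrays as a replicate block, the shifts of Krt7 minus Krt8 (−2.84) and Krt19 minus Krt18 (−2.71) had an adjusted exact p of 0.156, which 5 pairs cannot lower to the threshold; with the block in limma 6 keratins fell, Krt10 being the call lost (adjusted p = 0.0647). Krt1 minus Krt10 passed after quantile normalization (0.22). Over the arrays left out in turn, its shift ran from 0.14 to 0.25 and that of Krt8 minus Krt18 from −0.24 to −0.017. Of the linker genes, 1 in place of 2 rose in 7 of the fits that left out 1 array. Centring moved the share of higher among called genes to 61.1%, against 54.3% as deposited.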
